A study of Mus musculus with 8 samples.

Results

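The 10 genes described here encode receptor tyrosine kinases known to be raised when tumor cells adapt to MEK inhibition: Egfr, Erbb2, Erbb3, Met, Igf1r, Insr, Fgfr1, Fgfr2, Axl and Pdgfrb. They were taken by symbol from the 34478 genes of the deposited table, and all 10 were found. The study sequenced polyA RNA of 4 mouse pancreatic ductal adenocarcinoma (PDAC) lines, numbered #1, #3, #5 and #10, each as 1 DMSO-treated control and 1 sample given trametinib, an inhibitor of MEK, for 48 h (MEKi), 8 libraries in all. Each line received trametinib at its own half-maximal inhibitory concentration, and these doses are not given in the sources used here. Every line, in both arms, came from tumor pieces of a mouse model that carries Ptf1awt/Cre and Trp53loxP/loxP, in which Cre driven by the pancreatic gene Ptf1a deletes Trp53. Whether the lines came from separate mice is not stated, so the replicate here is the line, and a single line has no replicate of its own. The medium held fetal bovine serum in both arms.

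Receptor tyrosine kinases sit in the cell membrane, pair up when a growth factor binds, and phosphorylate each other and docking proteins inside the cell. They feed the MAPK pathway of RAF, MEK and ERK, and in parallel PI3K and AKT. ERK in turn restrains its own receptors through phosphatases, Sprouty proteins and other feedback, and loss of that restraint under MEK inhibitors is a known route by which tumor cells regain signaling. In the pancreas, EGFR is known for its part in early tumor lesions, while AXL and MET are known from invasive and mesenchymal-like carcinoma cells.

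The values are normalized counts, which the authors scaled so that libraries can be compared. They summed to between 30680091 and 36385719 per library, or about 29300000 to 45900000 reads judged from the step between low values. A level of 3 reads, taken as the smallest the depth can show, lies between 2.33 and 3.72 normalized counts. Target genes of the MAPK pathway served as a check of the treatment, and those named here fell in all 4 lines. The ERK phosphatase Dusp6 stood at 4992 to 9662 in the DMSO libraries and at 638 to 2231 in the MEKi libraries (log2 change -2.51, SE 0.14, adjusted p = 0.00012 in limma), the transcription factor Etv4 at 2106 to 2997 and at 16.5 to 80.0 (-5.92, SE 0.39, adjusted p = 0.00020). The label as pancreatic carcinoma cells was set against marker genes. The keratin Krt8 was at 27587 normalized counts or higher in every library and the epithelial cadherin Cdh1 at 19630 or higher, but Epcam was listed at 0 in every library of lines #1, #5 and #10 and reached 10.4 in line #3. The mesenchymal filament gene Vim was at 31314 or higher throughout. Of the markers of other cells, the leukocyte gene Ptprc stayed at 17.2 or lower, the endothelial gene Pecam1 at 15.6 or lower, and the fibroblast gene Lum was at 0 in all libraries. The sum of the 9 epithelial markers was 220962 to 347703 with DMSO and 113444 to 221941 with MEKi, and of the 7 tested, 5 were lower (Cldn7, Krt7, Krt18, Krt8 and Krt19) and 1, Cldn4, was higher, where 25.6% of all genes tested were lower and 27.3% higher. The sum of the 8 mesenchymal markers, all tested, went from 63576 to 108483 with DMSO to 137240 to 196891 with MEKi, with 4 higher (Fn1, Cdh2, Zeb2 and Zeb1) and 1, Vim, lower. The 8 fibroblast markers summed to 95.8 to 359 and to 440 to 1254, and of 5 tested 1, Col1a1, was higher. The leukocyte markers summed to 145 to 231 and to 227 to 509, with 1 of 3 tested, Csf1r, higher, and the endothelial markers to 30.9 to 55.4 and to 62.7 to 831, with 1 of 3, Tek, higher. Whether these shifts had a part in the changes of the receptor genes was not tested. In bulk RNA, fewer cells with a transcript and less of it per cell cannot be told apart.

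The following 4 stretches of regulatory sequence are shown because their genes, Igf1r, Egfr, Fgfr2 and Met, changed with MEKi and have an entry in the promoter table used, which holds 6 of the 10 genes (also Erbb2 and Axl). Each runs 5′ to 3′ from 250 bases before to 50 bases after the start of the gene in RefSeq on GRCm38.p6. Capitals mark the motifs found on either strand: the GC box GGGCGG, the E-box CACGTG, the AP-1 motif TGACTCA and the ETS motif CCGGAAG. A reverse-strand match reads as its reverse complement.
Igf1r: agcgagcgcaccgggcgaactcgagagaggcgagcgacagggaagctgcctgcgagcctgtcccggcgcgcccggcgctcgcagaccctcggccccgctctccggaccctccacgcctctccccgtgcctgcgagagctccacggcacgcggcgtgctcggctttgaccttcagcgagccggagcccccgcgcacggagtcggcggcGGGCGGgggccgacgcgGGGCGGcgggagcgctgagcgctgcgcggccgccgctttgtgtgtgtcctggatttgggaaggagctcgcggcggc
Egfr: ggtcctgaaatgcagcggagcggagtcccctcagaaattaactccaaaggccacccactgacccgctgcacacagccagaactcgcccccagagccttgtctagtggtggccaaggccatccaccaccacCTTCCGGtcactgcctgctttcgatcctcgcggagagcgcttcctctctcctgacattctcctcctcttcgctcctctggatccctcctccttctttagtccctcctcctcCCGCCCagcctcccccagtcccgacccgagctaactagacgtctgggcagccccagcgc
Fgfr2: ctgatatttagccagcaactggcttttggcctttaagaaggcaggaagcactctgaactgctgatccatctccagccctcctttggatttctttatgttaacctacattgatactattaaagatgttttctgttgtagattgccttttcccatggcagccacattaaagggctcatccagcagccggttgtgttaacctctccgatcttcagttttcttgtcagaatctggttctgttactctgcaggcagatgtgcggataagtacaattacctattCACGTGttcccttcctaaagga
Met: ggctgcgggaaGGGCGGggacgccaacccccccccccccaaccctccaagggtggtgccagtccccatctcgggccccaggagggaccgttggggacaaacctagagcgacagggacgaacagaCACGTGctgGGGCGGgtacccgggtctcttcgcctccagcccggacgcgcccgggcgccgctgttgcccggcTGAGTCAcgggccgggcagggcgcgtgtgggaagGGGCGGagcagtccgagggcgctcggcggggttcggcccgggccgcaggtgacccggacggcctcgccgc
The Igf1r window lies at chr7:67952007-67952306 on the plus strand, is 76.0% G or C and holds 2 GC boxes. The Egfr window at chr11:16751953-16752252, plus strand, is 62.3% G or C and holds 1 GC box and 1 ETS motif. The Fgfr2 window at chr7:130266759-130267058, minus strand, is 43.7% G or C, below the median of 52.7% over the 32851 promoters of the table, and its only match is 1 E-box that begins 28 bases after the start. The Met window at chr6:17463707-17464006, plus strand, is 75.7% G or C and holds 3 GC boxes, 1 E-box and 1 AP-1 motif. Of all promoters in the table, 35.7% held a GC box, 7.15% an E-box, 5.20% the AP-1 motif and 8.86% the ETS motif. Neither the forkhead motif GTAAACA (3.65% of all promoters) nor the TATA motif TATAAA (13.6%) was found in these 4 windows. A match says only that the letters are there, and no binding was measured.

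Of the 10 receptor genes, 9 passed the filter on low values, a mean of at least 10 over the 8 libraries, and 4 of these 9 were higher with MEKi: Fgfr2, Insr, Igf1r and Egfr. One gene, Met, was lower, and Erbb2, Erbb3, Fgfr1 and Axl did not pass the test (limma, blocked by line, adjusted p under 0.05 over all genes tested). Among all 15888 genes tested, 27.3% were called higher and 25.6% lower, so the 4 of 9 higher (44.4%) and 1 of 9 lower (11.1%) are to be read against a background in which over 1 gene in 2 moved. The counts behind these shares were 4341 and 4075, and became 5315 and 3284 when the libraries were rescaled to equal totals, 3848 and 4492 with centring on the median, and 3779 and 4233 with quantile normalization. The median log2 change of the 9 genes was 0.85, and that of all genes tested 0.07. The middle gene was Fgfr1, which did not pass the test. It was again the middle gene without line #3 (0.39, all genes 0.06) and with quantile normalization (0.38, all genes -0.03). Pdgfrb fell below the filter. Without the filter, its log2 change of 1.24 had an adjusted p of 0.14 in limma.

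**Figure D1:**
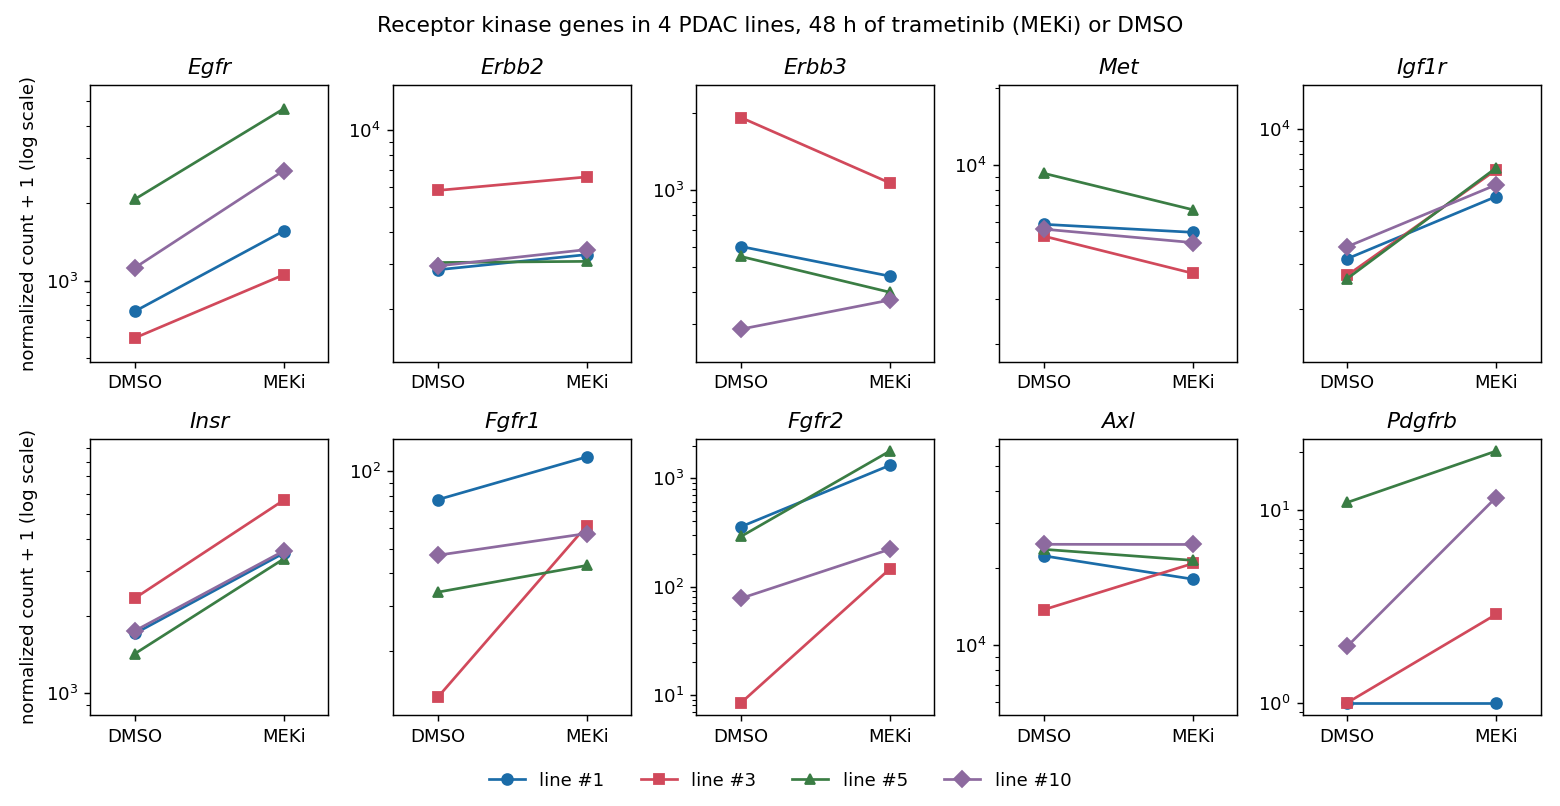
Normalized count plus 1 (log scale) of each of the 10 receptor genes in the DMSO and MEKi libraries of the 4 lines, each line joined by a segment. Igf1r, Insr, Egfr and Fgfr2 slope upward in every line, as do Erbb2 and Fgfr1, which did not pass the test. Met slopes downward in every line, and Axl and Erbb3 go in both directions. The axes span different ranges.

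Both insulin-type receptor genes rose in every line. Igf1r encodes the receptor of the insulin-like growth factors, which signals through IRS proteins to PI3K and promotes survival. With DMSO it was at 3131 normalized counts in line #1, 2697 in line #3, 2618 in line #5 and 3488 in line #10, and with MEKi at 5466, 6946, 7068 and 6075 in the same order. The lowest MEKi library lay above the highest DMSO library, and lines #3 and #5, lowest with DMSO, were highest with MEKi. The rise was 2.14-fold (log2 change 1.10, SE 0.14, 95% interval 0.77 to 1.43, adjusted p = 0.0011 in limma, higher in 4 of 4 lines). By line, the log2 change was 0.80 in lines #1 and #10, 1.36 in line #3 and 1.43 in line #5. Insr encodes the insulin receptor, the close relative with which the Igf1r product can form hybrid receptors. It was at 1709, 2347, 1425 and 1751 in lines #1, #3, #5 and #10 with DMSO and at 3513, 5655, 3337 and 3584 with MEKi. Again no MEKi library fell within the range of the DMSO libraries, and line #3 was highest in both arms. The rise was 2.21-fold (log2 change 1.14, SE 0.086, 95% interval 0.94 to 1.35, adjusted p = 0.00029 in limma), with lines between 1.03 and 1.27. Both genes were called in the 14 settings that ask for a change of any size, without the block included. Against a minimum change of 2-fold neither passed (adjusted p in limma 1.0 for Igf1r and 0.56 for Insr). In GENCODE M21 on GRCm38, Igf1r spans chr7:67952827-68233668 on the plus strand and Insr chr8:3122061-3279617 on the minus strand, and the exons of the pair share 2 words of 31 bases out of 16771 and 13706.

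Among the ERBB receptors, Egfr rose while its partners did not pass the test. Egfr encodes the receptor of EGF, TGF-alpha, amphiregulin and epiregulin. With DMSO it was at 758 normalized counts in line #1, 597 in line #3, 2076 in line #5 and 1121 in line #10, and with MEKi at 1559, 1052, 4672 and 2682. Line #5 was highest and line #3 lowest in both arms, so the groups overlap although each line rose. The rise was 2.10-fold (fold interval 1.77 to 2.49), a log2 change of 1.07 (SE 0.10, 95% interval 0.82 to 1.32, adjusted p = 0.00053 in limma), from 0.82 in line #3 to 1.26 in line #10. Unblocked, the same change had an adjusted p of 0.15 in limma. Erbb2 encodes the ERBB receptor without a known ligand, the preferred partner of the others. It was at 2847, 5805, 3038 and 2946 in lines #1, #3, #5 and #10 with DMSO and at 3262, 6551, 3070 and 3412 with MEKi. Line #3 stood apart at both treatments, and each line differed little between treatments (log2 change 0.15, SE 0.080, 95% interval -0.04 to 0.34, adjusted p = 0.16 in limma). The call depended on scaling, with an adjusted p of 0.023 at equal totals and 0.030 with quantile normalization. Erbb3 encodes the neuregulin receptor with an impaired kinase, which couples to PI3K. It was at 602, 1916, 550 and 286 in lines #1, #3, #5 and #10 with DMSO and at 461, 1066, 399 and 372 with MEKi. It was thus lower in 3 lines and higher in line #10, the line with the lowest DMSO level (log2 change -0.33, SE 0.20, 95% interval -0.80 to 0.14, adjusted p = 0.20 in limma). Without line #10 the log2 change was -0.56 (adjusted p = 0.032 in limma). The 3 genes lie at chr11:16752203-16918158 (Egfr, plus strand), chr11:98412470-98437716 (Erbb2, plus strand) and chr10:128567523-128589652 (Erbb3, minus strand) of GRCm38.

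Fgfr2 had the largest change of the 9 genes tested. The FGF receptors bind fibroblast growth factors with heparan sulfate and signal through the docking protein FRS2, and Fgfr2 is the form best known from epithelium. With DMSO, Fgfr2 was at 356 normalized counts in line #1, 7.44 in line #3, 289 in line #5 and 76.8 in line #10, and with MEKi at 1315, 144, 1779 and 220. Every line rose, but the lines lie so far apart that the groups overlap, with line #3 lowest in both arms. The rise was 5.77-fold (fold interval 2.95 to 11.3), a log2 change of 2.53 (SE 0.41, 95% interval 1.56 to 3.50, adjusted p = 0.0025 in limma), higher than that of 97.3% of all genes tested. Without the block its adjusted p was 0.17. The line changes ran from 1.5 in line #10 to 4.11 in line #3, and in line #3 they rest on about 7 reads with DMSO and 154 with MEKi, a ratio of 19.4 (95% counting interval 9.38 to 50.1). In GENCODE, the gene spans chr7:130162451-133123350 on the minus strand, through transcripts that join exons of Ctbp2, and 3.04% of its exon length overlaps that gene on the same strand. Ctbp2 was at 2373 in the DMSO library of line #3, in which Fgfr2 was at 7.44, and it did not pass the test (log2 change 0.11, adjusted p = 0.30 in limma). Fgfr1, known from mesenchymal cells, was at 76.7, 12.2, 32.8 and 46.1 in lines #1, #3, #5 and #10 with DMSO and at 113, 60.4, 42.0 and 56.3 with MEKi. All 4 lines were higher, but 1 line carried most of the difference, with a log2 change of 2.22 in line #3 and of 0.28 to 0.55 in the others (mean 0.85, SE 0.38, 95% interval -0.05 to 1.74, adjusted p = 0.098 in limma). The mean was 0.39 without line #3 (adjusted p = 0.21 in limma) and 0.38 with quantile normalization (0.40). Fgfr1 lies at chr8:25513654-25575718 on the plus strand.

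Met and Axl, the most abundant of the set in control cells per length of exon, did not rise. Met encodes the receptor of hepatocyte growth factor, a driver of cell scattering and invasion. It was at 5875 normalized counts in line #1, 5280 in line #3, 9282 in line #5 and 5626 in line #10 with DMSO, and at 5469, 3785, 6698 and 4986 with MEKi. Each line was lower with MEKi, by less than the lines differed among themselves, and the groups overlap. The fall was to 0.808 of the control level (log2 change -0.31, SE 0.099, 95% interval -0.54 to -0.07, adjusted p = 0.037 in limma). The call depended on the settings: it held in 6 of the same 14 settings, was lost without line #3 (adjusted p = 0.058), line #5 (0.15) or line #10 (0.073), and at equal totals the log2 change was -0.18 (adjusted p = 0.16). Axl encodes the receptor of GAS6, a vitamin K-dependent ligand. It was at 22294, 13769, 23646 and 24738 in lines #1, #3, #5 and #10 with DMSO and at 18094, 20825, 21421 and 24705 with MEKi. The highest libraries of the arms were close, the lowest was the control of line #3, and only line #3 was higher with MEKi, by 0.60 on the log2 scale, while line #1 was at -0.30, line #5 at -0.14 and line #10 at -0.00. The mean change was 0.04 (SE 0.16, 95% interval -0.33 to 0.41, adjusted p = 0.85 in limma), and its sign turned with centring of each library on its median (-0.021) and without line #3 (-0.15). Met lies at chr6:17463800-17573980 on the plus strand and Axl at chr7:25757273-25788705 on the minus strand.

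Pdgfrb, the PDGF receptor of pericytes and fibroblasts, was close to the limit of detection. Neither library of line #1 held a value above 0. In line #3 it was at 0 with DMSO and 1.87 with MEKi, in line #5 at 9.93 and 19.2, and in line #10 at 0.96 and 10.6. These values correspond to at most about 24 reads, and only the 2 libraries of line #5 and the MEKi library of line #10 lie above the level of 3 reads. The ratio was 1.93 in line #5 (95% counting interval 0.84 to 4.98) and 11 in line #10 (1.60 to 475), from 1 and 11 reads. The 6 pericyte markers summed to 46.1 to 65.7 with DMSO and to 1022 to 2645 with MEKi. Of these 6, 3 were tested and all 3 were higher (27.3% of all genes were), Mcam, Notch3 and Cspg4. The filter takes the mean over both arms, so markers this low with DMSO can pass it through their MEKi values. For that reason the 3 of 3 cannot be weighed against the share of all genes. With MEKi, in counts not scaled to length, the adhesion molecule gene Mcam was at 976 to 2580, Notch3 at 3.85 to 47.7 and Cspg4 at 10.5 to 96.4, while Kcnj8 was at 0 in 7 of 8 libraries and at 0.97 in the other, and Rgs5 did not exceed 6.74. The part of these markers in the Pdgfrb values was not tested. Pdgfrb lies at chr18:61045150-61085061 on the plus strand.

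**Figure D2:**
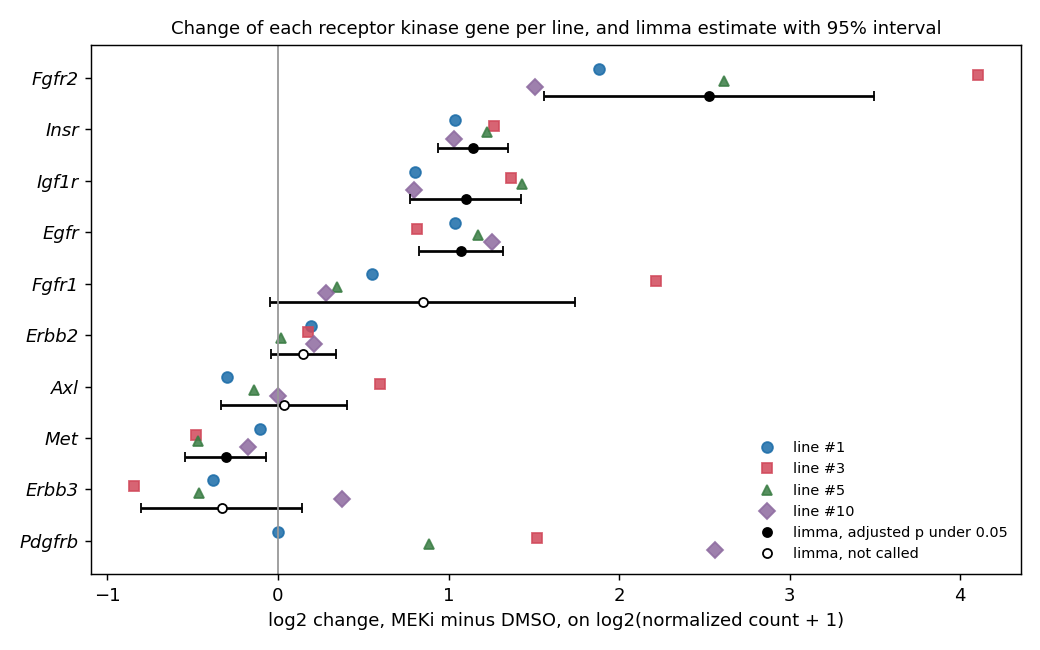
Log2 change with MEKi of each receptor gene, on the scale log2(normalized count + 1), in each line (colored symbols) and as the limma estimate with its 95% interval (black, filled where the adjusted p was under 0.05). Fgfr2, Insr, Igf1r and Egfr lie to the right of 0 in all 4 lines, as do Erbb2 and Fgfr1, which did not pass the test. Line #3 stands apart for Fgfr1, and Pdgfrb has line values only, since it fell below the filter.

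Levels of the receptor genes were set against each other as normalized counts per kb of exon. With DMSO, Axl led at 4195 ± 993 per kb (SD, n = 4 lines), followed by Met at 849 ± 242, Erbb2 at 702 ± 275, Igf1r at 178 ± 24.1, Erbb3 at 139 ± 122, Insr at 132 ± 28.2 and Egfr at 100.5 ± 58.5. Fgfr2 at 17.6 ± 16.1 and Fgfr1 at 4.25 ± 2.74 were lower still, and Pdgfrb ranged from 0 to 1.81. The ranges over the lines were apart between Axl and Met, between Erbb2 and Igf1r and between Egfr and Fgfr2, and overlapped between all other neighbors in this order. Axl alone made up 52.2% to 73.3% of the summed level per kb of the 10 genes with DMSO and 59.1% to 68.5% with MEKi. With MEKi, Axl was at 4224 ± 539 per kb, Erbb2 at 782 ± 318, Met at 682 ± 157, Igf1r at 380 ± 45.1, Insr at 293 ± 79.5, Egfr at 220 ± 142, Erbb3 at 95.5 ± 54.8, Fgfr2 at 83.7 ± 78.5, Fgfr1 at 6.88 ± 3.14 and Pdgfrb at 0 to 3.50. In the order of means Egfr and Insr now stood above Erbb3, and Erbb2 above Met, but the ranges of these pairs overlap in both arms, except that Insr and Erbb3 were apart with MEKi. With DMSO, Erbb3 lay above Insr in only 1 of 4 lines, line #3, and Met above Erbb2 in 3 of 4, and with MEKi Erbb2 lay above Met in 2 of 4. The order among the middle genes depends on the length used: with the mean length of the annotated transcripts, Axl, Met, Erbb2 and Igf1r still led with DMSO, whereas with MEKi Igf1r came second.

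**Figure D3:**
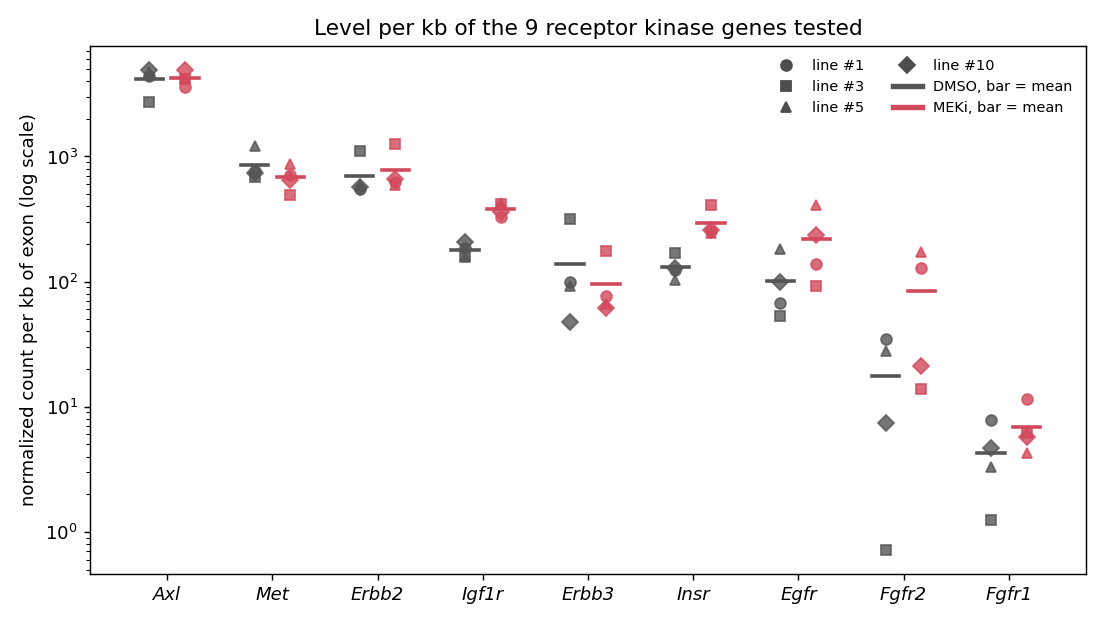
Normalized count per kb of exon (log scale) of the 9 receptor genes tested, in order of their DMSO mean; symbols are the 4 lines, bars are means, gray is DMSO and red is MEKi. Axl lies above every other gene in all 8 libraries, and the Fgfr2 values of a group spread more widely than those of Igf1r or Insr.

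Within the ERBB receptors, and against Met, Egfr gained. Per kb, the ratio of Egfr to Erbb2 was 0.12 in line #1, 0.047 in line #3, 0.31 in line #5 and 0.18 in line #10 with DMSO, and 0.22, 0.074, 0.70 and 0.36 with MEKi. The ratio of Egfr to Met went from 0.077 to 0.15 across the DMSO libraries to 0.19 to 0.47 across the MEKi libraries, ranges that do not overlap. The ratio of Egfr to Erbb3 was also higher with MEKi in 4 of 4 lines, as was that of Fgfr2 to Fgfr1, which reached 40.5 in line #5. The ratio of Insr to Igf1r, at 0.61 to 1.06 with DMSO and 0.58 to 0.99 with MEKi, was higher in only 2 of 4 lines. These ratios follow from the values above and were not tested on their own.

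The 4 lines differed from each other in 6 of the 9 genes tested (66.7%), against 27.6% of all genes (limma F test over lines, adjusted p under 0.05). This share is not particular to the 10 genes: of 22 further receptor tyrosine kinase genes tested, 15 differed (68.2%). In the other gene lists below it was 62.5% of transcription regulators, 52.9% of brakes, 37.5% of ligands, 28.6% of shedding genes and 18.2% of adaptors. Without line #3, or without line #5, the count was 4 of 9. The spread in this test is what remains after line and treatment, with 1 library for each combination. Egfr (adjusted p = 0.0017), Erbb2 (0.0044), Fgfr2 (0.0080), Erbb3 (0.011), Insr (0.022) and Met (0.027) passed, and Igf1r was the most even (0.90). Line #3 set several of these differences. It had the highest Erbb2, Erbb3 and Insr and the lowest Egfr, Fgfr2 and Met in both arms, and without it the adjusted p in limma was 0.84 for Erbb2, 0.12 for Erbb3 and 0.25 for Insr. The difference in Met rested on line #5 (adjusted p = 0.24 in limma without it), which had the highest Met and Egfr in both arms. Insr also missed the threshold without line #5 (0.057), and Fgfr1 passed it without line #3 (0.042). With eBayes without trend, 4 genes differed between lines, and Insr (0.075) and Met (0.088) no longer passed.

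The ligand genes were split, with Areg, Btc and Ereg, which encode ligands of EGFR, among those that fell. Of 26 ligand genes of the 10 receptors, 25 are in the table (all but Ins1) and 16 were tested, of which 5 were higher and 7 lower (31.3% and 43.8%, against the 27.3% and 25.6% of all genes), with a median log2 change of -0.18. Areg, the gene of amphiregulin, was at 1994, 1776, 2171 and 2204 normalized counts in lines #1, #3, #5 and #10 with DMSO and at 54.5, 35.8, 112 and 75.9 with MEKi. Its log2 change of -4.97 (SE 0.22, adjusted p = 9.0e-05 in limma) was the largest fall of the list. Btc, the gene of betacellulin, went from 1459 to 2930 with DMSO to 36.5 to 217 with MEKi (-4.59, SE 0.26, adjusted p = 0.00014), and Ereg, the gene of epiregulin, from 1208 to 2946 to 102 to 383 (-3.13, SE 0.25, adjusted p = 0.00032). The MEKi libraries lay below all DMSO libraries for each of these genes. Tgfa, Hbegf, Nrg2 and Fgf1 were the other ligand genes that fell, and Egf itself, at 128 to 226 and 144 to 220, did not pass the test. Nrg1, a ligand of the ERBB3 receptor, rose by 0.81 on the log2 scale (SE 0.13, adjusted p = 0.0026 in limma). Gas6, the ligand gene of AXL, rose the most: it was at 12.4, 3.12, 17.4 and 10.5 with DMSO and at 406, 41.2, 483 and 87.5 with MEKi (log2 change 3.98, SE 0.40, adjusted p = 0.00057 in limma), with no overlap and with line #3 at the level of 3 reads in the control. Thus Gas6 rose where Axl did not pass the test. Pdgfb went from 875 to 1574 with DMSO to 3820 to 9471 with MEKi (2.25, SE 0.18, adjusted p = 0.00033 in limma) and Pdgfd from 16.3 to 212 to 124 to 2020 (2.57, SE 0.26, adjusted p = 0.00061). Among the 10 genes their receptor gene is Pdgfrb, which was near its limit of detection in these cells. The other PDGF receptor gene, Pdgfra, was at 9.96 to 105 with DMSO and 19.6 to 71.2 with MEKi (adjusted p = 0.91 in limma). The ligand genes of the insulin-type receptors were scarce: Igf1 did not exceed 22.9 and Igf2 6.59, and Ins2 was listed at 0 in all libraries. Of the ligand genes of FGFR2, Fgf7 was at 16.5 to 153 and did not pass the test, and Fgf10 did not exceed 2.94. Fgf18, another FGF gene of the ligand list, was called higher. Hgf, the ligand gene of Met, did not exceed 6.03, and any growth factor of the serum is not seen by RNA.

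**Figure D4:**
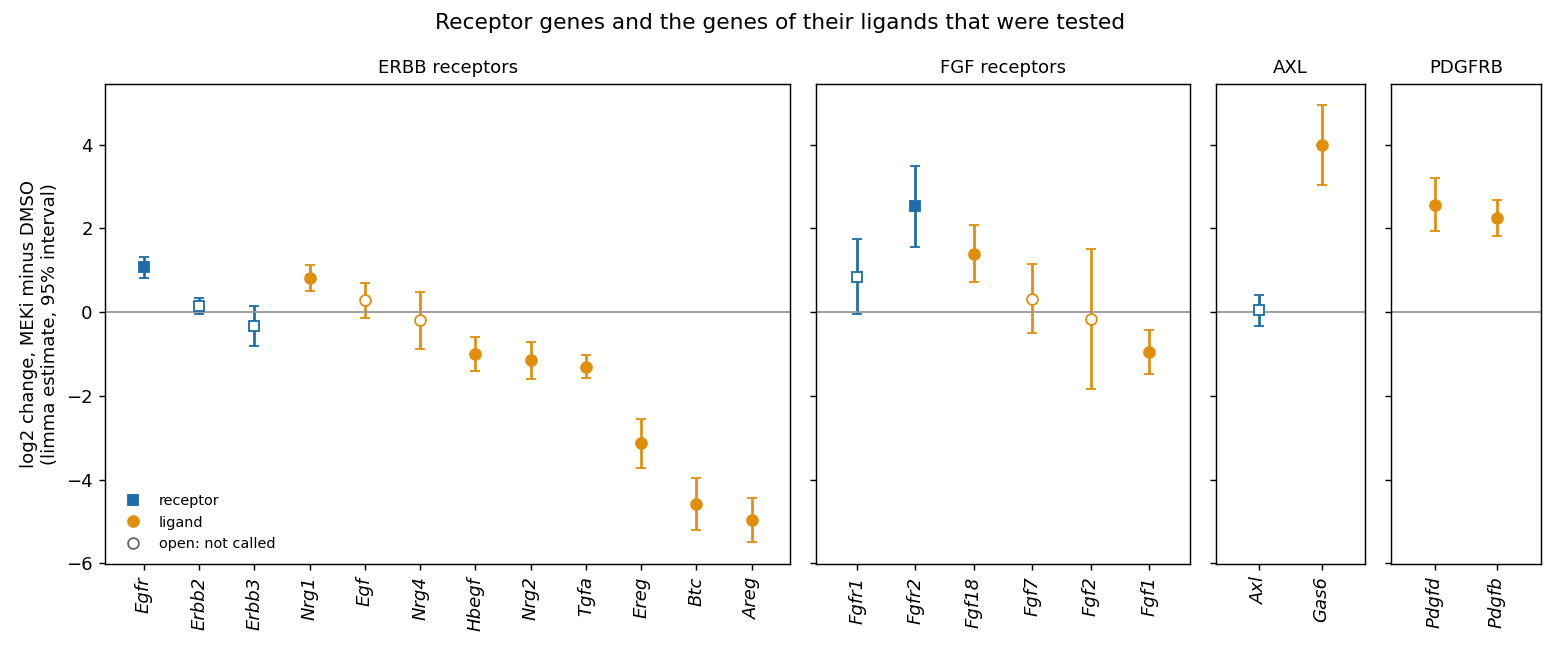
Log2 change with MEKi (limma estimate, 95% interval) of receptor genes (blue squares) and of the tested genes of their ligands (orange circles), grouped by receptor family; filled symbols had an adjusted p under 0.05. Areg, Btc and Ereg lie between -4.97 and -3.13 beside Egfr at 1.07, and Gas6 lies at 3.98 beside Axl at 0.04; Pdgfrb fell below the filter and has no symbol.

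Some other receptor kinase genes had larger estimated changes than Fgfr2. Of 30 further receptor tyrosine kinase genes, Eph receptors left out, 22 were tested, 10 were higher and 2 lower (45.5% and 9.09%, against 27.3% and 25.6% of all genes), with a median log2 change of 0.44. Fgfr3, the relative of Fgfr2, was at 47.6, 73.5, 101 and 915 normalized counts with DMSO and at 1185, 1262, 1631 and 6096 with MEKi (log2 change 3.86, SE 0.28, adjusted p = 0.00027 in limma). No MEKi library fell within the DMSO range, although line #10 stood far above the others in both arms. Tek, an angiopoietin receptor of endothelium, went from 1.3 to 21.5 with DMSO to 13.5 to 805 with MEKi (3.77, SE 0.52, adjusted p = 0.0015), with the controls of lines #5 and #10 below the level of 3 reads. The other endothelial markers tested, Kdr and Pecam1, did not pass the test. Kit, the stem cell factor receptor, went from 1.41 to 223 to 75.2 to 1479 (3.15, SE 0.46, adjusted p = 0.0017), led by line #3 in both arms. Its control in line #10 was below the level of 3 reads. That line had the largest log2 change of Kit, 4.98, against 2.39 to 2.72 in the others. Ros1 (-1.92, SE 0.40, adjusted p = 0.0067) and Ret (-1.25, SE 0.39, adjusted p = 0.033) fell, from DMSO levels of at most 31.6 and 110.

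The docking proteins and the brakes of the receptors were counted in turn. Of 11 adaptor genes, all tested, 3 were higher (27.3%, the share of all genes) and 0 lower, with a median log2 change of 0.12. Gab1, which docks PI3K and SHP2 to EGFR and MET, went from 132 to 354 normalized counts with DMSO to 736 to 1247 with MEKi (1.99, SE 0.16, adjusted p = 0.00032 in limma). Gab2 rose by 0.88 (SE 0.16, adjusted p = 0.0041), and Irs1, the docking protein of the insulin-type receptors, by 0.65 (SE 0.21, adjusted p = 0.038). Of 17 genes that restrain receptor signaling, 3 were higher and 5 lower (17.6% and 29.4%, against 27.3% and 25.6% of all genes), with a median of -0.01. The Sprouty genes Spry4 (-3.61, SE 0.24, adjusted p = 0.00021 in limma) and Spry2 (-2.05, SE 0.14, adjusted p = 0.00022) fell, as did Errfi1, whose product MIG6 binds and inhibits the EGFR kinase. Errfi1 was at 13901, 5919, 7861 and 4475 with DMSO and at 3497, 2597, 3138 and 1610 with MEKi, without overlap (-1.49, SE 0.14, adjusted p = 0.00047 in limma). The other lower brakes were Spred1 and Spred2. The ubiquitin ligase gene Cblb (0.84, SE 0.16, adjusted p = 0.0043), Lrig2 (0.47, SE 0.14, adjusted p = 0.029) and Rnf41 (0.36, SE 0.098, adjusted p = 0.019), whose product degrades ERBB3, were higher.

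Proteases that shed receptors and ligands from the cell surface, and their inhibitors, moved in both directions. Of 7 such genes, 3 were higher and 2 lower (42.9% and 28.6%, against 27.3% and 25.6% of all genes), with a median log2 change of 0.14. The sheddase gene Adam10 rose from 3823 to 5645 with DMSO to 6829 to 15183 with MEKi (0.88, SE 0.18, adjusted p = 0.0070 in limma), and Adam9 fell by 0.78 on the log2 scale (SE 0.12, adjusted p = 0.0023). Of the inhibitors, Timp3 (1.16, SE 0.20, adjusted p = 0.0032) and Timp2 (0.80, SE 0.19, adjusted p = 0.013) rose and Timp1 (-0.74, SE 0.092, adjusted p = 0.0011) fell. Of 10 transcription regulators linked with receptor kinase genes, 8 were tested, 2 were higher and 2 lower (25.0% each, near the share of all genes), with a median of 0.13. Foxo3, a forkhead factor held back by AKT, was at 1127, 597, 719 and 603 with DMSO and at 2509, 1450, 1686 and 1726 with MEKi (1.29, SE 0.10, adjusted p = 0.00031 in limma), without overlap. Wwtr1, the gene of the YAP partner TAZ, rose by 0.90 (SE 0.097, adjusted p = 0.00070). Myc, an ERK-stabilized factor, fell from 6413 to 11238 to 3036 to 5652 (-1.01, SE 0.078, adjusted p = 0.00031), and Ctbp1, a corepressor gene, fell by 0.48 (SE 0.099, adjusted p = 0.0069).

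For each receptor gene called, the tested genes with the most similar pattern over the 8 libraries were listed, by the root mean square difference of their centred log2 values. Insr was nearest to Pex11g at 0.059 and Rsrp1 at 0.090. Igf1r was nearest to Lysmd4 at 0.10 and Gm42820 at 0.12, and Met to Lrrc14 at 0.092 and Efl1 at 0.11. Egfr was nearest to Klhdc8a at 0.23 and Prph at 0.32. Fgfr2 was nearest to Lmcd1 at 0.59 and Slc2a5 at 0.64. The genes themselves varied by different amounts: the root mean square deviation over the libraries was 2.27 for Fgfr2, 0.92 for Egfr, 0.64 for Insr, 0.57 for Igf1r and 0.35 for Met.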

How the data were processed

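Stranded mRNA libraries of 4 murine PDAC lines, DMSO and MEKi, were analysed from the table of normalized counts per gene symbol that the authors deposited, a signal scaled by the authors between libraries. The submitters' processing notes name CASAVA 2.17, Salmon 0.12, DESeq2 1.18 and mm10, without their role, and the annotation is not given in the sources used here. Low values were whole multiples of the value of 1 read for only 56.4% to 67.7% of cases (within 0.05 of a read), so reads could not be recovered and no count model was run. Counting intervals rest on approximate reads, at 95%, and cover counting error only.

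Values were tested as log2(value + 1) with limma 3.58.1 in R 4.3.3 (lmFit, eBayes with trend, cell line as a block, a mean of at least 10, Benjamini-Hochberg adjustment over 15888 genes, threshold 0.05). Fold changes are on that scale, which understates low genes. P-values for MEKi measure how unevenly the lines changed, that is, the spread left after line and treatment, which eBayes moderates across genes. Only without the block do they include the spread between lines. The labels number both libraries of a line alike, since they are 1 cell line, and their deviations from the treatment means correlated at 0.63 to 0.72. On simulated data with 15608 genes, the fit recovered 60 of 98 genes changed by 1 and 85 of 94 changed by 2 on the log2 scale and called 11 unchanged genes. Far fewer genes changed there than the 8416 called in the data, so these rates do not carry over to the data. The simulation also called 8659 genes as different between lines, against 4391 in the data. Intermediate steps used Python 3.11.15, numpy 2.4.6, pandas 2.3.3, scipy 1.17.1 and matplotlib 3.10.9. Gene positions and lengths are those of GENCODE M21 on GRCm38, promoters those of RefSeq on GRCm38.p6.

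The receptor genes and all lists were chosen with earlier results of these data known. Named were the 10 genes, Dusp6, Etv4 and Spry4, up to 3 genes with the largest rise and 3 with the largest fall per list among those called, and for each called receptor gene the 2 genes nearest in pattern. Any other gene was named after its values were seen. A further allele of the mouse model, shared by all libraries, is not reported here. Alternatives were other pseudocounts, scalings and filters, no block, other eBayes settings, a minimum change of 2-fold, another gene length and leaving out each line.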

Additional observations from a re-analysis of the deposited data

Results flagged for a closer look

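Among 30 groups of 4 values looked at for the receptor genes, 4 held a line far from the other lines by Dixon's gap criterion at the 95% level, where chance gives about 1.5, and in each it was line #3. The log2 level of Erbb2 in line #3 was 12.5 with DMSO, against 11.5 to 11.6 in the other lines, and 12.7 with MEKi, against 11.6 to 11.7. The log2 level of Insr in line #3 was 12.5 with MEKi, against 11.7 to 11.8. The log2 change of Fgfr1 in line #3 was 2.22, against 0.28 to 0.55, and rests on about 12 reads with DMSO and 65 with MEKi, a ratio of 4.95 (95% counting interval 2.61 to 9.92).

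For 2 genes the lines moved in opposite directions, a difference that was not tested, since each line has 1 library per treatment. The log2 change of Erbb3 ran over a range of 1.22, from -0.85 in line #3 to 0.38 in line #10. That of Axl ran over 0.90, from -0.30 in line #1 to 0.60 in line #3.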

How the results depend on the processing

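Igf1r and Insr were called higher under the 14 alternatives that ask for a change of any size, at log2 changes of 0.99 to 1.23 and 1.08 to 1.27, and Egfr and Fgfr2 under 13. The libraries of a line are paired, and without the replicate block the unchanged log2 changes of Egfr (1.07, adjusted p = 0.15), Fgfr2 (2.53, 0.17) and Met (-0.31, 0.35) missed the threshold, 2 receptor genes were higher and 0 lower, and 2205 genes were higher and 2347 lower in limma. At equal totals, which moved the median of all genes to 0.20, Erbb2 passed at 0.28 (adjusted p = 0.023) and Met was at -0.18 (0.16). With quantile normalization Erbb2 passed at 0.26 (0.030) and Met was at -0.17 (0.16). Met was at -0.31 also without a filter (0.068) and with eBayes without trend (0.085). In these 4 settings 0 receptor genes were lower. The genes that differ between lines numbered 4391, 2862 without a filter and 1879 without trend. A minimum change of 2-fold left 557 genes higher, 176 lower and 0 receptor genes in either direction. With centring on the median, Axl turned to -0.021. Leaving out each line in turn gave Erbb3 -0.56 to -0.16 (called without line #10), Met -0.38 to -0.25, Axl -0.15 to 0.15, 0 to 1 receptor genes lower, and 2028 to 4558 genes that differ between lines. Without line #1 that count was 2028, without line #5 2518 and without line #10 2097. Without line #3 it was 4558, with the same number of libraries. The cause was not tested. With the mean transcript length in place of the exon length, Axl with DMSO was at 12463 per kb.

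Each line has 1 library per treatment, so no change within a line has an error of its own, and the dose was set for each line. Depth limits Pdgfrb in all lines and Fgfr2 and Fgfr1 in line #3. RNA levels say nothing of receptor protein, its phosphorylation or its place in the cell.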
